A study of Mus musculus with 11 samples.

Results

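The expression of 10 transcription factor genes known from stem cells of the hair follicle bulge was followed in 2 cell fractions of mouse back skin: Sox9, Lhx2, Tbx1, Nfatc1, Tcf7l1, Tcf7l2, Nfib, Runx1, Foxc1 and Barx2. Every probe set that the platform annotation assigns to 1 of these symbols and to no other gene was taken, which gave 32 probe sets of the 34945 with 1 gene symbol, and each was read apart. CD34+ keratinocytes (5 arrays) were set against CD34- cells (6 arrays). Both came from the back skin of K5-myrAkt(L84) mice, a single transgenic line in which the promoter of keratin 5, active in basal keratinocytes, drives an active, membrane-bound form of Akt. All 11 samples therefore carry the transgene, and the comparison is one between sorted fractions and not a measure of Akt. The cells were parted with magnetic beads after staining for CD34, and total RNA was hybridised to single-channel Affymetrix arrays. No age, treatment, hair cycle stage or batch is stated for any group, nor whether an array stands for its own mouse, so p-values measure only the spread between these samples. The CD34- samples are entered as follicle stem cells too in their cell type field, while the design text calls only the CD34+ ones so.

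The bulge is the part of the outer root sheath where hair follicle stem cells rest between hair cycles, and in the mouse these cells carry CD34 on their surface. Several transcription factors are known to keep them in place or at rest: Sox9 and Lhx2 in specifying and maintaining the stem cells, Nfatc1 and Foxc1 in holding them quiescent, Tcf7l1 and Tcf7l2 at genes that Wnt signals control through beta-catenin, and Tbx1 in their renewal over repeated cycles. Runx1 is known for a role in leaving rest, Nfib for coordinating the stem cells with neighbouring melanocyte stem cells, and Barx2, a homeobox factor, for hair follicle remodelling.

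On the brightest probe set of each gene 8 of the 10 genes were higher in CD34+ cells, Barx2 was lower and Nfib was not called. Barx2 was dim, with all 5 CD34+ arrays under their array's 40th percentile. When that percentile replaced the dimmer values, its call was lost (-0.80, limma adjusted p = 0.0733). The fall, the lack of overlap and the exact p counted for Barx2 below rest on those dim values. Among the brightest probe sets of all 11891 genes tested, 11.6% were called higher and 10.5% lower. Nfib was higher on a dimmer probe set. Of 30 probe sets bright enough to be tested, 16 rose, 1 fell and 13 did not pass an adjusted p under 0.05 (limma, adjusted over all 20967 probe sets tested). Among all tested probe sets, 20.7% were called, 11.0% higher and 9.77% lower in CD34+ cells. The rise was called for 53.3% of the tested probe sets of these genes, which share genes and are not separate cases. The median log2 difference over the 30 probe sets was 0.95, against 0.02 over all probe sets tested. The 10 genes were chosen with earlier results of these data known, so shares and medians beside the background are descriptive and not independent support. On 13 of the 30 every CD34+ array was above every CD34- array, and on 1 every CD34+ array was below, where 7.20% and 6.20% of all tested probe sets behaved so. A two-sided exact permutation test of each gene's brightest probe set, not adjusted, gave p = 0.00216, the smallest that the 462 splits of the arrays allow, except for Tcf7l2 and Barx2 (p = 0.00433 each). The share of calls that were higher depended on the scaling between arrays: it was 52.9% over all probe sets as deposited, 38.4% after quantile normalization and 7.6% after equal medians, a step that moved the median difference of all tested probe sets to -0.46. With equal medians 10 probe sets of these genes were called higher and 3 lower, those of Barx2 (-2.37), 1419485_at of Foxc1 (-1.07) and 1434101_at of Nfib (-0.70), and the 16 with a rise as deposited kept a difference above 0 under both scalings.

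**Figure D1:**
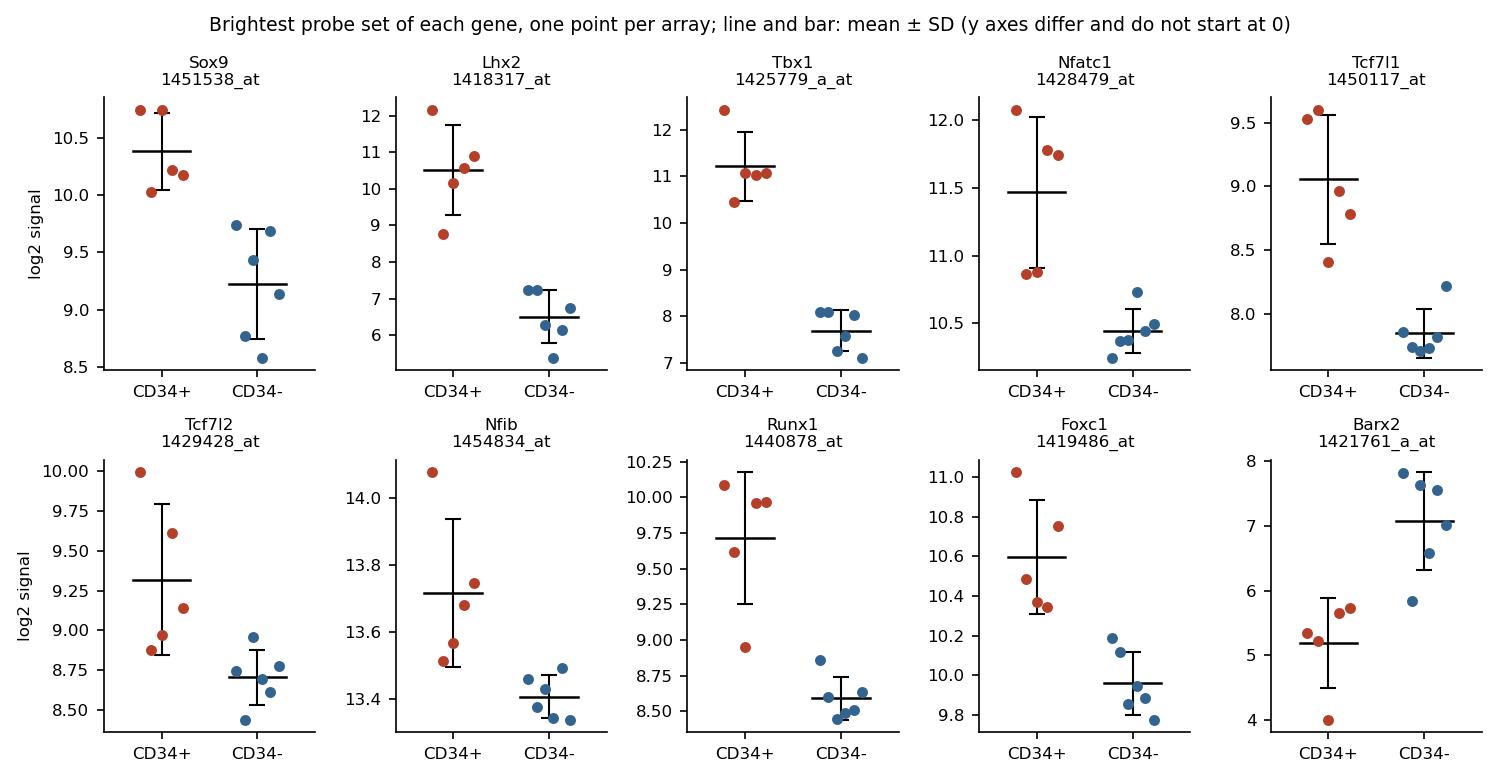
Log2 signal of each gene's brightest probe set on 5 CD34+ arrays (left in each panel, red) and 6 CD34- arrays (right, blue), with 1 point per array, a line at the mean and bars of 1 SD. The fractions did not overlap for 9 of the 10 genes, the exception being Tcf7l2. Barx2 was the only one lower in CD34+ cells, where all its values were under their array's 40th percentile. Over all tested probe sets, and not only brightest ones, 7.20% lay wholly higher and 6.20% wholly lower on CD34+ arrays.

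The sort was checked on Cd34 itself, which had a mean log2 signal of 11.83 on CD34+ arrays and 4.20 on CD34- arrays. The basal keratins Krt5 (log2 difference -0.07, limma adjusted p = 0.714) and Krt14 (-0.31, adjusted p = 0.22) were not called on their brightest probe sets. For Krt14, 1 of its 2 other tested probe sets was called lower. The bulge keratin Krt15 (0.47, adjusted p = 0.0531) was not called. Of the 11 bulge and outer root sheath genes listed 4 rose and 1 fell. Over the brightest probe sets of all genes, 11.6% were called higher and 10.5% lower. Beside Cd34 and Lgr5 the called genes of the list were the matrix gene Postn (3.01), Fgf18 (4.83) and, falling, the integrin gene Itga6 (-0.53, limma adjusted p = 0.00273). The last 3 were named after their values were seen. Cd34 and Fgf18 passed the brightness limit (a mean log2 signal of 6.06) only through CD34+ arrays. Their CD34- means were 4.20 and 4.67, so the sizes of these 2 differences depend on dim values. Lower calls in this list were 4 after quantile normalization and 5 with equal medians, and higher calls were 4 under both. The log2 ratio of the 3-prime to the 5-prime actin control, which rises as RNA or its labelled copies get shorter, was 5.25, 4.56, 3.97, 2.91 and 3.06 on CD34+ arrays 1 to 5 and 2.19 to 2.76 on CD34- arrays. The same ratio of the Gapdh controls overlapped, at 2.96 to 3.69 on CD34+ arrays and 3.00 to 3.43 on CD34- arrays. The median log2 signal of an array was 6.71 to 7.23 for CD34+ and 6.36 to 6.51 for CD34-. Since whole fractions were measured, a change in the number of cells of a type and a change in RNA per cell cannot be told apart.

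Lhx2 and Tbx1 showed the largest differences of the 10 genes. Lhx2, a LIM homeobox factor (1418317_at), had log2 signals of 12.17, 8.78, 10.17, 10.57 and 10.91 on CD34+ arrays 1 to 5, against 5.38 to 7.24 (median 6.51) on CD34- arrays. The lowest CD34+ array, array 2, was still above the highest CD34- array, of the 6 CD34- arrays 1 was under its 40th percentile, and the spread was wider within CD34+ cells (SD 1.23, n = 5) than within CD34- cells (SD 0.72, n = 6). Lhx2 was higher in CD34+ cells by 4.02 on the log2 scale (SE 0.48, limma adjusted p = 1.55e-04), a fold of 16.2. Tbx1, a T-box factor (1425779_a_at), had log2 signals of 12.42, 10.45, 11.07, 11.03 and 11.08 on CD34+ arrays, against 7.12 to 8.11 (median 7.81) on CD34- arrays. Its arrays lay close together apart from CD34+ array 1, which was the highest for both genes. Tbx1 was higher by 3.51 (SE 0.30, limma adjusted p = 1.77e-05), a fold of 11.4. Each gene has 1 probe set, so no second probe set of the same gene was read.

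Promoter sequence is shown for the genes with the largest differences, and because several of the 10 factors bind known short DNA motifs. RefSeq start-site windows of GRCm38.p6, each 300 bases long from 250 before to 50 after the start, were found for 6 of the 10 genes (10 windows). On both strands the windows were searched for the TCF/LEF letters CTTTGAT or CTTTGAA, the SOX letters ACAATG or ACAAAG, the RUNX letters TGTGGT or TGCGGT, the nuclear factor I palindrome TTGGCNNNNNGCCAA or the shorter TTGGCA, the NFAT letters GGAAAA, the forkhead letters TGTTTAC, the LIM homeobox letters TAATTA, and the T-box letters GGTGTGA. The windows of the genes with the largest differences that held a match, Lhx2 (chr2:38351058-38351357, plus strand) and Tbx1 (chr16:18588850-18589149, minus strand), and the Runx1 window with RUNX letters (chr16:92826025-92826324, minus strand), read 5′ to 3′ on the gene's strand with every match in capitals:
Lhx2: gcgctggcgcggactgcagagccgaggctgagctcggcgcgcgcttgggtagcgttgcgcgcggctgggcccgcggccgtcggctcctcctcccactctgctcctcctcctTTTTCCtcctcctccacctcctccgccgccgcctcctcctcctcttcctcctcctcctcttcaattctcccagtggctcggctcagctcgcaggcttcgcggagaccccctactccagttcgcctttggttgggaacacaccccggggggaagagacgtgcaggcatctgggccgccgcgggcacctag
Tbx1: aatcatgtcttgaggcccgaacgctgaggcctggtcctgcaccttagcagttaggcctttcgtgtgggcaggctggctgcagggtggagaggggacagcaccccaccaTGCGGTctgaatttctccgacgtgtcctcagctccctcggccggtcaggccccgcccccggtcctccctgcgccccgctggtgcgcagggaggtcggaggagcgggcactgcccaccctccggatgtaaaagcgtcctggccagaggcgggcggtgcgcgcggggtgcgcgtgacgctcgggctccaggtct
Runx1: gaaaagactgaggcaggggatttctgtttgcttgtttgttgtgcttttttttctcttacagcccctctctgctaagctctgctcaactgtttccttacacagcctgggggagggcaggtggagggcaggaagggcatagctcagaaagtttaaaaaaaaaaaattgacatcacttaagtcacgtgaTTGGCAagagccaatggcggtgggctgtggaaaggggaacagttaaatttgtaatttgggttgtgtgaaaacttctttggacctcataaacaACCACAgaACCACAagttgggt
The Lhx2 window held GGAAAA on the opposite strand, 139 bases before the start, letters found in 23.4% of all 32851 windows of this length. The Tbx1 window held TGCGGT 142 bases before the start (6.45% of all windows). The Runx1 window held TGTGGT on the opposite strand 29 and 37 bases into the transcript (16.8% of all windows), and TTGGCA before the start (14.1%). The matches shown do not overlap each other. Over the 10 windows, none held either TCF/LEF heptamer, the nuclear factor I palindrome, the forkhead, the LIM homeobox or the T-box letters, which 3.73%, 5.14%, 0.0365%, 3.65%, 5.29% and 3.98% of all windows hold. Apart from the matches shown, the SOX letters lay in the window of Tcf7l1 and both windows of Tcf7l2, TTGGCA in a window of Tcf7l2, and TGTGGT and the NFAT letters in the window of Foxc1. ACAATG is in 12.6% and ACAAAG in 18.7% of all windows.

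Sox9, an HMG-box factor, rose on 1 of its 3 probe sets. On 1451538_at the log2 signals were 10.75, 10.03, 10.75, 10.22 and 10.18 on CD34+ arrays 1 to 5, against 8.58 to 9.74 (median 9.29) on CD34- arrays. No CD34+ array reached down to the CD34- range, and CD34+ cells were higher by 1.16 (SE 0.23, limma adjusted p = 0.00396). The probe sets 1424950_at (0.31, 95% interval -0.51 to 1.13) and 1433889_at (0.64, 95% interval -0.35 to 1.62) overlapped between the fractions and were not called. The second interval includes the value of the called probe set, and the first ends just below it. With equal medians 1424950_at turned to -0.17.

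Nfatc1, a factor that calcineurin sends to the nucleus, rose on 4 of its 5 probe sets. On 1417621_at the log2 signals were 12.13, 11.13, 11.10, 11.53 and 11.65 on CD34+ arrays, against 10.15 to 10.66 (median 10.21) on CD34- arrays. On 1447084_at they were 10.32, 8.77, 9.10, 9.14 and 9.39 on CD34+ arrays, against 7.65 to 7.94 (median 7.84) on CD34- arrays. Array 1 was the highest CD34+ array on both, and neither overlapped between the fractions. The differences were 1.19 (SE 0.18, limma adjusted p = 8.29e-04) and 1.53 (SE 0.23, adjusted p = 7.02e-04), while the brightest probe set 1428479_at gave 1.02 (SE 0.21, adjusted p = 0.00502). With equal medians that brightest probe set was at 0.54 and not called (adjusted p = 0.0865). The fourth, 1447085_s_at (0.96, SE 0.29, adjusted p = 0.0315), overlapped. Its call was lost after quantile normalization (0.77, adjusted p = 0.111), with equal medians (0.48) and with the replicate block (0.98, adjusted p = 0.0575). It was also lost without CD34+ array 1 (0.77), CD34+ array 4 (0.85), or CD34- arrays 1, 3, 5 or 6 (0.87 to 0.98), with the adjusted p up to 0.0681. The remaining 1425761_a_at was not called (0.23, 95% interval -0.46 to 0.93) and was -0.25 with equal medians.

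The HMG-box partners of beta-catenin, Tcf7l1 and Tcf7l2, were both higher in CD34+ cells. Tcf7l1, which acts mostly as a repressor, had log2 signals of 9.53, 9.60, 8.41, 8.96 and 8.79 on CD34+ arrays 1 to 5 (1450117_at), against 7.71 to 8.22 (median 7.78) on CD34- arrays. This probe set rose by 1.21 (SE 0.22, limma adjusted p = 0.00242) with no overlap. On 1436207_at a single CD34+ array, array 1, stood at 9.89 while the other CD34+ arrays read 5.68 to 6.68, against 5.35 to 7.42 on CD34- arrays. That probe set was not called (0.58, SE 0.64), and without CD34+ array 1 its difference was -0.13.

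Tcf7l2 rose on 3 of its 4 probe sets, and its brightest gave the smallest of the called differences. On 1429427_s_at the log2 signals were 10.41, 9.69, 9.45, 9.48 and 8.60 on CD34+ arrays, against 7.74 to 8.52 (median 8.04) on CD34- arrays, a difference of 1.42 (SE 0.26, limma adjusted p = 0.00269). On 1426639_a_at they were 8.60, 8.86, 8.06, 8.32 and 7.53 on CD34+ arrays, against 4.71 to 7.38 (median 7.10) on CD34- arrays, a difference of 1.81 (SE 0.48, adjusted p = 0.018). Neither overlapped, but 2 of the 6 CD34- arrays fell under their array's 40th percentile on the second. The brightest, 1429428_at, overlapped and gave 0.61 (SE 0.20, adjusted p = 0.0428). Its call was lost without CD34+ array 1 (0.44), CD34+ array 4 (0.54) or any 1 of the 6 CD34- arrays (0.56 to 0.66), with the adjusted p up to 0.0896. Its difference was 0.13 with equal medians, and not called. The call was also lost after quantile normalization (0.53, adjusted p = 0.101) and with no brightness filter (adjusted p = 0.0574). Neither a fit with no intensity trend (adjusted p = 0.0536) nor the replicate block (adjusted p = 0.0666) gave a call. The fourth, 1425229_a_at, was not called (1.21, adjusted p = 0.0606), except without CD34- array 5 (1.39, adjusted p = 0.0471).

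Runx1, the DNA-binding partner of Cbfb, rose on 3 of 5 tested probe sets, and all 5 differences were above 0. On the brightest, 1440878_at, the log2 signals were 10.09, 9.61, 8.95, 9.96 and 9.97 on CD34+ arrays 1 to 5, against 8.44 to 8.86 (median 8.55) on CD34- arrays. On 1452531_at they were 7.70, 9.50, 7.97, 8.50 and 7.93 on CD34+ arrays, against 6.45 to 7.26 (median 6.65) on CD34- arrays. Both were free of overlap, although the highest CD34+ array differed, array 1 on the first and array 2 on the second. The differences were 1.13 (SE 0.19, limma adjusted p = 0.0019) and 1.52 (SE 0.30, adjusted p = 0.00426). The call of 1422865_at (0.99, adjusted p = 0.0331) was lost after quantile normalization (0.53, adjusted p = 0.204) and with equal medians (0.51). It was lost too with no brightness filter (adjusted p = 0.0599) and with the replicate block (adjusted p = 0.112). The same held without CD34+ array 2 (0.91) or 4 (0.84) or CD34- array 2 (1.00), 4 (0.92), 5 (0.96) or 6 (0.89), with the adjusted p up to 0.0783. The other tested probe sets were not called with all arrays: 1422864_at (0.49) was called without CD34+ array 1 (0.69), and 1452530_a_at (1.01) without CD34+ array 3 (1.31). The sixth, 1427650_a_at, was too dim to be tested: CD34+ arrays averaged 6.26 ± 1.15 (SD, n = 5), CD34- arrays 5.29 ± 1.07 (SD, n = 6).

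Nfib, of the nuclear factor I family, was bright in both fractions, and most of its differences were small. On its brightest probe set, 1454834_at, the log2 signals were 14.08, 13.51, 13.57, 13.68 and 13.75 on CD34+ arrays, against 13.34 to 13.49 (median 13.40) on CD34- arrays. The fractions did not overlap, yet the difference was only 0.31 (SE 0.11, limma adjusted p = 0.0587), and it was -0.17 with equal medians. It was called without CD34+ array 2 (0.36) or 3 (0.35). Of 6 tested probe sets 1 rose, 1448288_at, with log2 signals of 13.17, 13.02, 13.39, 12.64 and 12.64 on CD34+ arrays, against 11.50 to 12.64 (median 11.997) on CD34- arrays (difference 0.93, SE 0.23, adjusted p = 0.0135). With equal medians it was at 0.45 and not called (adjusted p = 0.145). The other 4 tested were 1434102_at (0.01), 1427680_a_at (0.57), 1434101_at (-0.22) and 1438244_at (0.23), none of them called with all arrays. Of these 1427680_a_at was called without CD34+ array 2 (0.77) or CD34- array 5 (0.71). The seventh, 1416293_at, was too dim to be tested (CD34+ mean 5.79 ± 0.81, SD, n = 5; CD34- mean 5.78 ± 0.70, SD, n = 6).

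Foxc1, a forkhead factor, gave opposite signs on 2 probe sets that the annotation traces to the same expressed sequence. On 1419486_at the log2 signals were 11.03, 10.49, 10.37, 10.35 and 10.75 on CD34+ arrays, against 9.78 to 10.19 (median 9.92) on CD34- arrays, a rise of 0.64 (SE 0.15, limma adjusted p = 0.00983) with no overlap. On 1419485_at they were 8.85, 9.71, 10.31, 9.71 and 9.53 on CD34+ arrays, against 9.95 to 10.49 (median 10.19) on CD34- arrays. Only CD34+ array 3 lay within the CD34- range there, and the difference of -0.59 (SE 0.22, adjusted p = 0.0644) was called without that array (-0.76, adjusted p = 0.0161). With equal medians the pair gave 0.16 (not called) and -1.07, or 0.61 and -0.61 relative to the median of all tested probe sets.

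Barx2 (1421761_a_at) was lower in CD34+ cells. Its log2 signals were 5.35, 5.23, 3.99, 5.66 and 5.73 on CD34+ arrays, against 5.84 to 7.81 (median 7.29) on CD34- arrays. Every CD34+ array lay below the lowest CD34- array, and the difference was -1.89 on the log2 scale (SE 0.43, limma adjusted p = 0.00863). The gene was dim: all 5 CD34+ arrays and 1 of 6 CD34- arrays were under their array's 40th percentile. It passed the brightness limit (a mean of 6.06) only through CD34- arrays, with a mean of 7.08 against 5.19 on CD34+ arrays. With values under that percentile raised to it, the difference was -0.80 and not called (adjusted p = 0.0733), so its size depends on values under that percentile. Without CD34+ arrays 1 to 3 it was -1.39 (adjusted p = 0.0706).

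**Figure D2:**
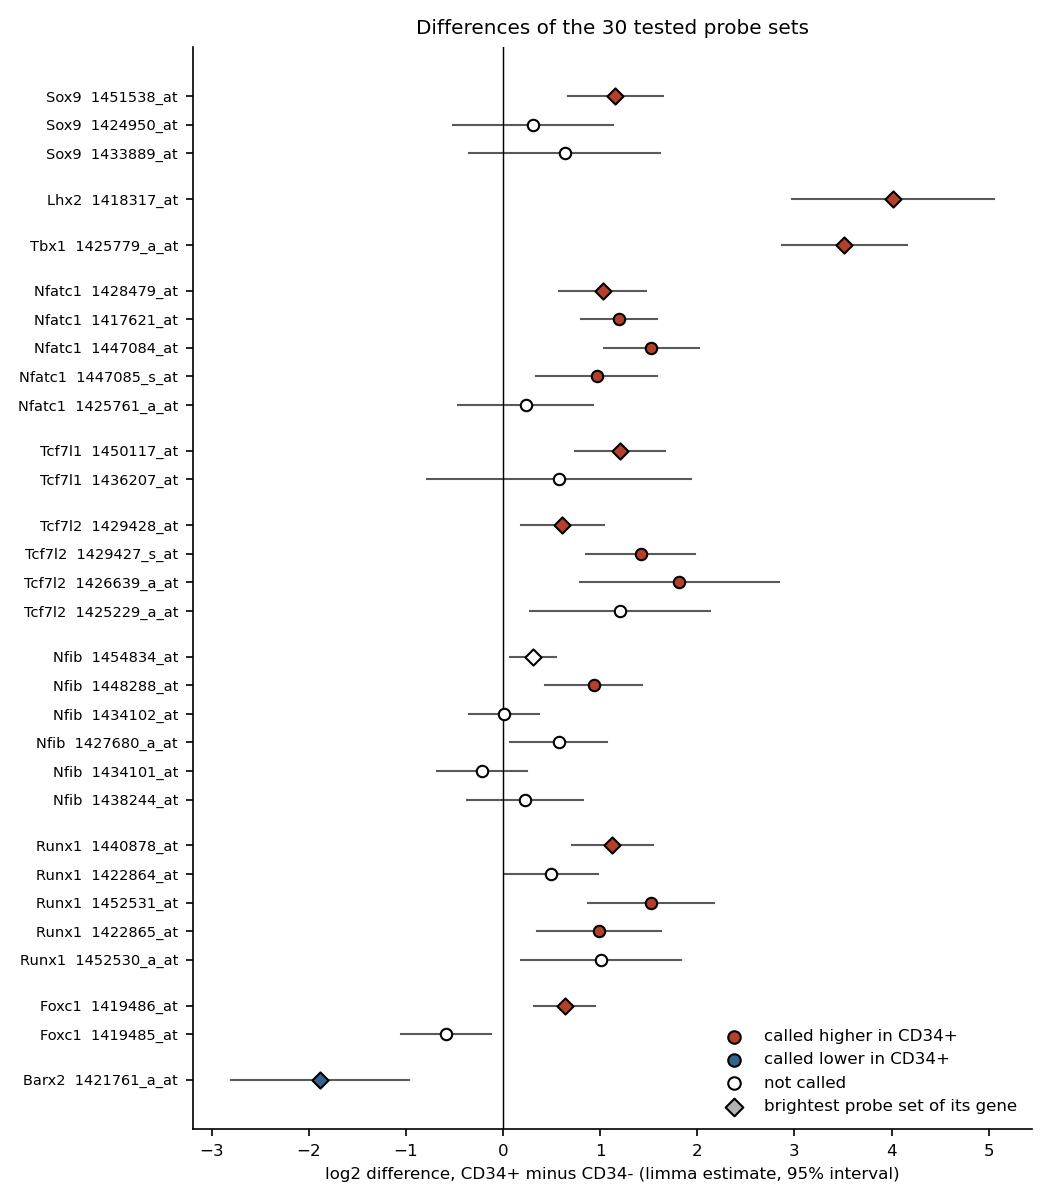
Log2 difference between CD34+ and CD34- arrays for the 30 tested probe sets, grouped by gene, with the 95% interval of the limma model. The 16 intervals in red lie above 0 and passed the adjusted threshold, the blue one of Barx2 lies below, and 13 open points were not called.

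Where a gene had several tested probe sets, each was set against its brightest by the within-array difference between the pair, with a two-sided exact permutation test over the 462 splits of the arrays (20 such comparisons). The largest gaps by p were those of Foxc1 (1419485_at minus 1419486_at, -1.22, exact p = 0.00433) and Tcf7l2 (1429427_s_at minus 1429428_at, 0.80, exact p = 0.00649), and both had a Benjamini-Hochberg adjusted p = 0.0649 in these exact tests. No pair passed 0.05 after adjustment, so the probe sets of a gene were not shown to differ, and equality was not shown either. The probe sets 1433889_at of Sox9, 1452530_a_at of Runx1 and 1421761_a_at of Barx2 passed the brightness limit (a mean log2 signal of 6.06) only through their brighter fraction, and of these Barx2 alone was called.

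Measured against the mean of the CD34- arrays, the median of the 10 brightest probe sets was 1.51, 0.66, 0.42, 1.05 and 0.94 on CD34+ arrays 1 to 5, and -0.10 to 0.25 on CD34- arrays. All 5 CD34+ arrays were above the 6 CD34- arrays. Array 1, the highest, also had the highest actin ratio, while arrays 4 and 5, with actin ratios nearest those of the CD34- arrays, were the next. With the actin ratio as a covariate, which left 124 probe sets called higher and 25 lower in the whole table, Tbx1 was the only probe set of these genes called (3.02, adjusted p = 0.0121). Lhx2 then had 3.69 (adjusted p = 0.051), Runx1 1.14 (1440878_at), Nfatc1 1.08 (1428479_at), Sox9 0.96 and Tcf7l1 0.68. Tcf7l2 had 0.47 (1429428_at), Foxc1 0.43, Nfib 0.19 (1454834_at) and Barx2 -1.52. None of these was called. Without CD34+ arrays 1 to 3, which had the highest actin ratios, 15 probe sets were higher and 1 lower, with Lhx2 at 4.24, Tbx1 at 3.36, Sox9 at 0.97 and Nfatc1 at 1.32 (1428479_at), all called. The lower one was then 1419485_at of Foxc1 (-0.59) and not Barx2. The calls of 1426639_a_at of Tcf7l2 (1.47), 1448288_at of Nfib (0.60) and 1422865_at of Runx1 (1.11) were lost. The actin ratio and the sort cannot be told apart in these arrays, since every CD34+ array had the higher ratio.

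**Figure D3:**
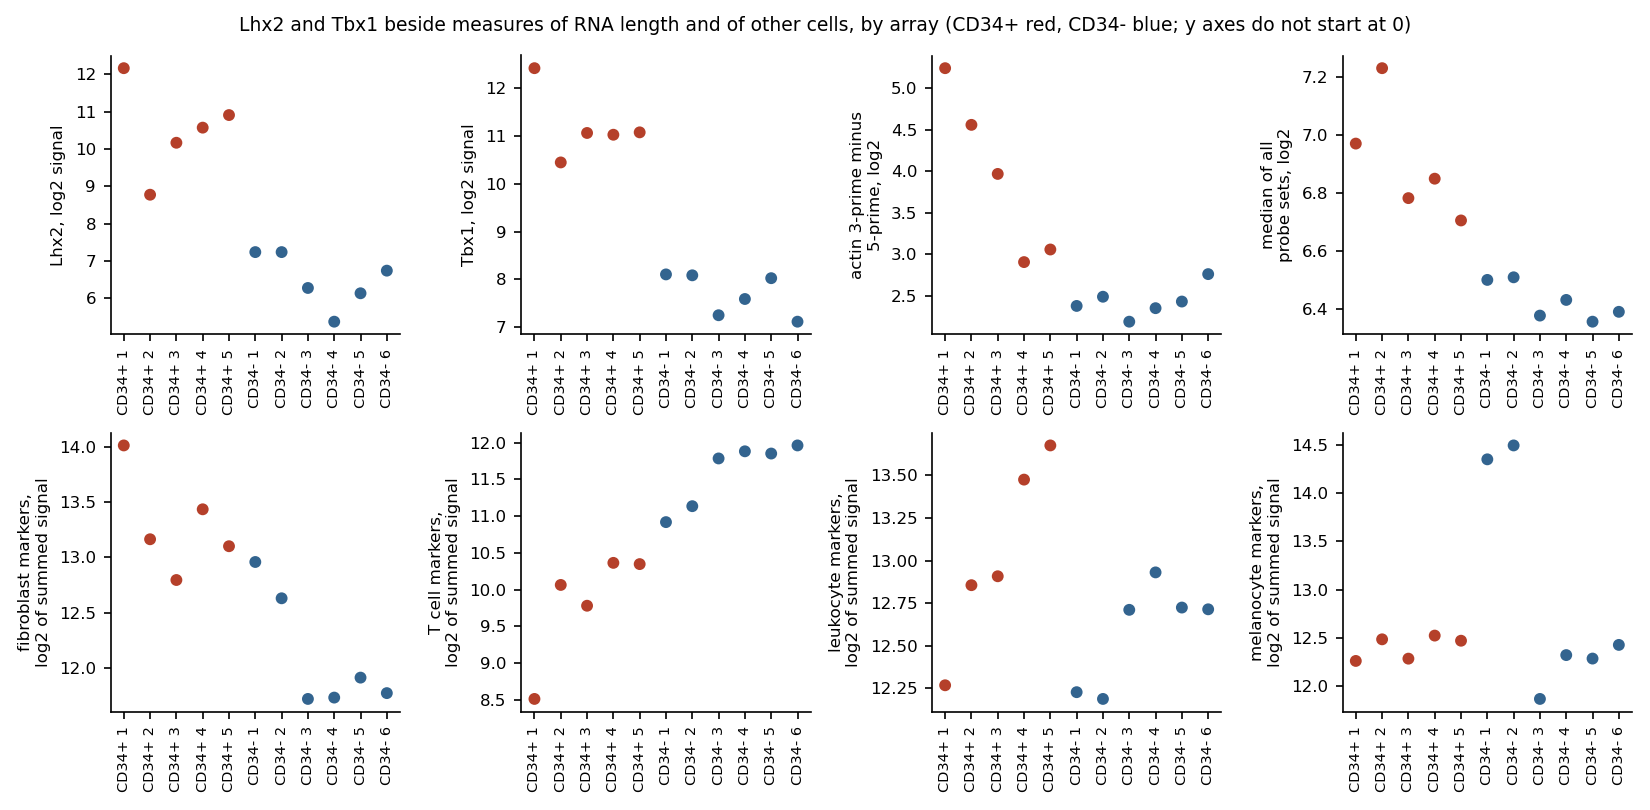
Lhx2 and Tbx1 signals beside the actin ratio, the median of all probe sets and the log2 of summed linear signals of marker genes of other skin cells, 1 point per array (CD34+ red, CD34- blue). Lhx2, Tbx1, the actin ratio and the array median were higher on every CD34+ array, T cell markers were lower on every CD34+ array, and melanocyte markers were high on CD34- arrays 1 and 2.

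Marker genes of other skin cells also differed between the fractions, and some of the 10 genes are known from such cells as well, such as Foxc1 in mesenchyme and Runx1 in blood cells. The counts of marker genes stand beside 11.6% called higher and 10.5% called lower over the brightest probe sets of all genes. Of 8 fibroblast genes 5 were tested and 4 rose, Col1a2 among them (3.49, SE 0.26), and their summed signal on the log2 scale was 12.80 to 14.01 on CD34+ arrays and 11.72 to 12.96 on CD34- arrays, with CD34+ array 1 the highest. Of 6 pericyte and muscle genes 2 were tested and 1, Acta2, rose (2.05, SE 0.54), with sums of 9.07 to 12.08 on CD34+ arrays and 8.55 to 9.19 on CD34- arrays. Of 8 endothelial genes 2 were tested and neither was called, 3 lay under the 40th percentile of all 11 arrays (Cdh5, Tek and Tie1), while Kdr lay under it on 0 and Egfl7 on 2 of them, and the sums were 8.18 to 9.52 on CD34+ arrays and 8.13 to 8.55 on CD34- arrays. Of 8 leukocyte and antigen presenting cell genes 7 were tested, 3 rose (5 without CD34+ array 1) and 1, Ptprc, fell (-1.81, SE 0.40), with sums of 12.27 to 13.68 on CD34+ arrays and 12.19 to 12.93 on CD34- arrays. All 4 tested T cell genes of 5 on the array fell (3 or 4 with 1 array left out), with sums of 8.51 to 10.36 on CD34+ arrays and 10.92 to 11.96 on CD34- arrays. The 1 tested mast cell gene of 5, Kit, fell (-1.33, SE 0.24), with sums of 8.63 to 9.48 on CD34+ arrays and 9.37 to 10.39 on CD34- arrays. None of the 6 melanocyte genes was called, but their sum was 14.35 and 14.50 on CD34- arrays 1 and 2, against 12.26 to 12.52 on all CD34+ arrays. None of 5 sebaceous genes was called. Of 5 upper epidermis genes 2 rose, but 0 rose without CD34+ array 2 or 3 or CD34- array 4, 5 or 6, 1 without CD34- array 2 or 3, and 3 without CD34+ array 4 or 5. Of 5 tested hair matrix and inner root sheath genes 1 rose and 1 fell, the rise being lost without CD34+ array 1 or CD34- array 4 or 6. Some called markers passed the brightness limit only through their brighter fraction: Col3a1 and Hoxc13 (CD34- means 4.25 and 5.39) and Cd7 (CD34+ mean 5.10). They were named after their values were seen. With the actin ratio as a covariate 1 fibroblast and 3 leukocyte genes rose and 1 T cell gene fell. With equal medians 4 fibroblast genes and 1 leukocyte gene rose, and 4 T cell genes and 1 leukocyte gene fell. The part of other skin cells in the differences of the 10 genes was not tested. Without CD34- arrays 1 and 2, Lhx2 differed by 4.39, Tbx1 by 3.71 and Foxc1 (1419486_at) by 0.73, all called, and 12 of the 30 probe sets were higher and 1 lower.

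**Figure D4:**
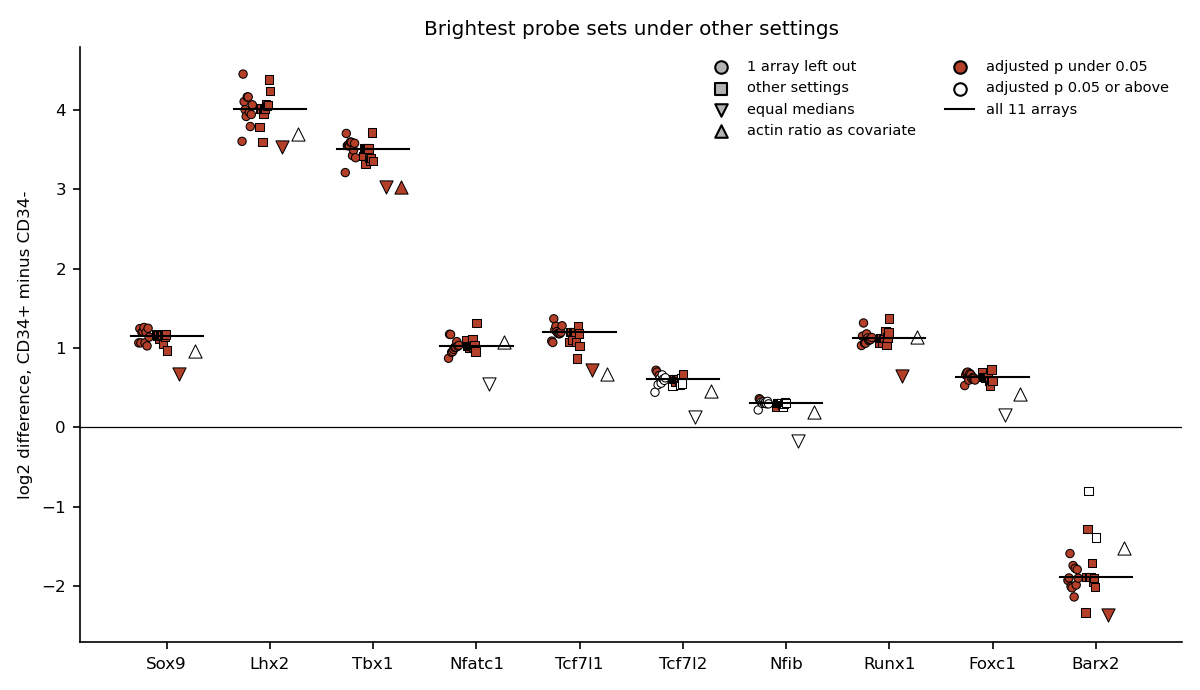
Log2 difference of each gene's brightest probe set in fits that omit 1 array, use other settings, set equal medians or add the actin ratio, filled where the adjusted p was under 0.05. Lhx2 and Tbx1 lie above 3 throughout, Nfib falls below 0 with equal medians, and with the actin ratio in the model Tbx1 alone is filled.

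Genes downstream of the 10 factors, from work in mouse follicles, moved in both directions. Of 10 on the array 9 were tested, 5 rose and 2 fell, with a median log2 difference of 0.80, where 11.6% of all genes were called higher and 10.5% lower on their brightest probe sets. The cell cycle kinase gene Cdk4, which Nfatc1 is known to repress, fell (-0.70, SE 0.18, limma adjusted p = 0.017), and so did both of its other tested probe sets. Cdkn1a, a cell cycle inhibitor gene that Runx1 is known to repress, also fell (-0.75, SE 0.20, adjusted p = 0.019), while its other tested probe set was not called lower. Inhba, which encodes an activin subunit, rose (2.23, SE 0.33, adjusted p = 6.68e-04), as did the BMP response genes Id2 (1.21, SE 0.30), Id1 (1.11, SE 0.36) and Id3 (0.80, SE 0.26). Edn2, an endothelin gene reported downstream of Nfib and named after its value was seen, rose as well (0.92, SE 0.31, adjusted p = 0.0473). Whether any of these changes came through the 10 factors was not tested. Their signs are not read as activity of a factor. When 1 array was left out, 2 to 4 genes of this list rose: the call of Edn2 was lost for 9 of the 11 arrays, with an adjusted p of up to 0.105, and those of Id1 and Id3 for 6 each, with an adjusted p of up to 0.0795 and 0.0802. After quantile normalization Inhba and Id2 were called higher, and with equal medians Inhba alone. Under these scalings 2 and 3 genes of the list were called lower. With the actin ratio as a covariate 0 were called higher and 0 lower. Bmp2, a BMP ligand gene, was not called (-0.72, adjusted p = 0.0551).

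Genes commonly read as targets of beta-catenin with TCF/LEF factors were called in both directions. Of 13 on the array 11 were tested, 2 rose and 3 fell, with a median of -0.37, beside 11.6% higher and 10.5% lower over the brightest probe sets of all genes. Counts this small are not read as a result about the list. Lgr5, also a follicle stem cell marker, rose (2.60, SE 0.19), as did Nkd1, an inhibitor of Wnt signals (1.59, SE 0.26). Axin2 (-0.76, SE 0.18) and Znrf3 (-0.66, SE 0.18), which dampen Wnt signals, and the receptor gene Tnfrsf19 (-1.45, SE 0.29) fell. The other tested probe sets of Nkd1 (1), Axin2 (1) and Tnfrsf19 (2) were not called the same way. With equal medians 2 genes of this list were called higher and 6 lower. With the actin ratio as a covariate 1 was called higher and 0 lower.

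Genes of proteins that bind the 10 factors were mostly not called. Of 20 on the array 19 were tested, 1 rose and 3 fell, with a median of -0.21, near the 11.6% and 10.5% over all genes, and the single genes are given as values only. The corepressor gene Ctbp2 rose (1.32, SE 0.25), on its other tested probe set too. Ldb1, the LIM domain binding partner of Lhx2, fell (-1.09, SE 0.21), as did Tle3, a Groucho corepressor of TCF factors (-1.07, SE 0.18), and Ppp3r1, a subunit of the calcineurin that acts on Nfatc1 (-0.82, SE 0.19). The other tested probe sets of Tle3 (2) and Ppp3r1 (1) were not called the same way. Beta-catenin itself, Ctnnb1, differed by 0.16 (limma adjusted p = 0.349), and Cbfb by -0.32 (adjusted p = 0.0938), both named after their values were seen. With equal medians 10 partner genes were called lower, Cbfb among them, and 1 higher. The actin ratio as a covariate left 0 called in either direction.

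Among 28 related factors on the array 15 were tested, 1 rose and 1 fell, with a median of -0.16, which is no more than the 11.6% and 10.5% over all genes, and 6 lay under the 40th percentile of every array. The forkhead gene Foxp1 rose (1.32, SE 0.23), on 5 of its 7 other tested probe sets too. Sox21, an HMG-box gene, fell (-1.17, SE 0.19), on its other tested probe set too. These counts rest on brightest probe sets. Some factors not called there were called the same way on other tested probe sets. Lower were Sox6 (2 of 3), Sox4 (1 of 4) and Nfic (1 of 3), and higher was Nfat5 (2 of 2), all named after their values were seen. The other nuclear factor I genes Nfia (-0.16), Nfic (-0.09) and Nfix (0.27), also named after their values were seen, were not called on their brightest probe sets. With equal medians 9 related factors were called lower and 1 higher. With the actin ratio as a covariate 0 were called in either direction.

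**Figure D5:**
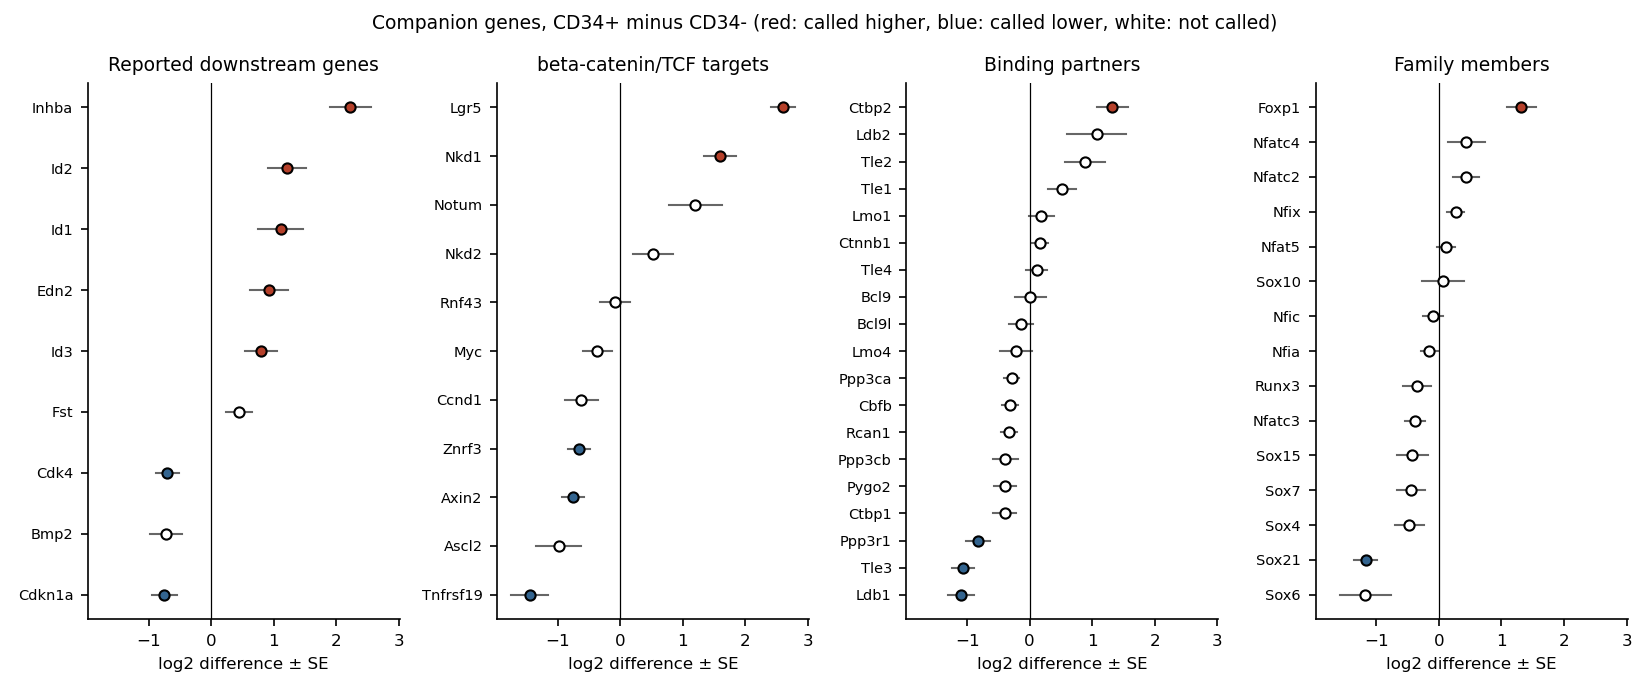
Log2 difference (CD34+ minus CD34-, bars of 1 SE) of the tested genes in 4 lists, on the brightest probe set of each gene, red where called higher, blue where called lower and white where not called. Reported downstream genes lie on both sides of 0, from -0.75 for Cdkn1a to 2.23 for Inhba.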

How the data were processed

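Total RNA of 5 CD34+ and 6 CD34- samples was measured on single-channel Affymetrix arrays. The values the authors deposited are log2 signals, 1 for each probe set of an array. The submitters' processing notes name MAS5, without version or settings. After conversion to linear signal the mean, trimmed by 2% at each end, was 500.002 to 500.004 on all 11 arrays, so the arrays share a scale, and no further normalization was applied. No detection calls were used. The table holds 45101 probe sets, of which 34945 have 1 gene symbol. The dimmest 40% of these by mean log2 signal were left out. The log2 difference was fitted for the other 20967 with limma 3.58.1 in R 4.3.3 (2 groups, empirical Bayes with an intensity trend, Benjamini-Hochberg adjustment), every adjusted p comes from this model unless an exact test is named, and the call threshold was 0.05. The fit was tested on simulated data with independent normal noise and no differences between arrays. That test does not cover the scaling between arrays or the actin ratio. The number of arrays limits the precision (median SE 0.22). Groups and numbers came from the sample titles. The members and lists were chosen with earlier results of these data known. All member probe sets are named. From each list of related genes, up to 4 called genes per direction with the smallest p are named, and from marker lists the 2 brightest, where named; Col1a2, Acta2, Ptprc and Kit are among these, and Cdh5, Tek and Tie1 were named after their values were seen. Alternatives were quantile normalization, equal medians, brightness filters, an offset of 32, values under the 40th percentile raised to it, other moderation, array weights, the actin ratio as a covariate, the replicate block, exact tests and arrays left out.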

Additional observations from a re-analysis of the deposited data

Results flagged for a closer look

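In 5 of 64 sets of arrays of 1 fraction on 1 probe set, an array lay far from the others by Dixon's criterion, which chance meets in about 1 of 20. On 1436207_at of Tcf7l1, CD34+ array 1 stood at 9.895 against 5.676 to 6.683 on the other CD34+ arrays, and that array alone gave the probe set its positive difference. On 1450117_at of Tcf7l1, CD34- array 6 stood at 8.223, above the 7.714 to 7.861 of the other CD34- arrays and still below every CD34+ array. On 1452530_a_at of Runx1, CD34+ array 3 was low at 5.614 against 6.898 to 7.362 on the other CD34+ arrays, and CD34- array 1 was low at 4.711 against 5.744 to 6.197 on the other CD34- arrays. Barx2 had its lowest value, 3.995, on CD34+ array 3, against 5.225 to 5.726 on the other CD34+ arrays.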

How the results depend on the processing

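Under 14 other settings and 11 omissions of 1 array, none of the called differences of the 10 genes turned its sign. Counts of probe sets of these genes called higher and lower, and of genes called higher on their brightest probe set, were 10, 3 and 5 with equal medians and 1, 0 and 1 once the actin ratio was a covariate. Array weights gave 2 lower. None was lower with the dimmest 60% left out, where Barx2 was not tested, or with values under the 40th percentile raised to it (0 each). Over all probe sets, calls higher and lower were 1381 and 2211 after quantile normalization, 675 and 8239 with equal medians, 1431 and 1969 with the dimmest 60% left out, 124 and 25 with the actin ratio, 1520 and 1361 without CD34+ arrays 1 and 2, 1377 and 1088 without CD34- arrays 1 and 2, and 1445 and 1364 without CD34+ arrays 1 to 3. The last pair of omissions was chosen after seeing the data. Fewer arrays leave less to test with, and for the scalings and the covariate the cause was not tested. Leaving out 1 array gave 13 to 18 probe sets higher and 1 to 2 lower (2 without CD34+ array 3), 7 to 9 genes higher, and 1597 to 2345 higher and 1360 to 2235 lower over all probe sets, the 1360 without CD34- array 4. Uncalled differences turned negative with equal medians for Sox9 1424950_at (-0.17), Nfatc1 1425761_a_at (-0.25), and Nfib 1454834_at (-0.17), 1434102_at (-0.47) and 1438244_at (-0.25), with the actin ratio for Sox9 1424950_at (-0.16) and Tcf7l1 1436207_at (-1.18), without CD34+ arrays 1 and 2 for the same (-0.071 and -0.21), and without CD34- arrays 1 and 2 for Nfib 1434102_at (-0.0905). With 1 array left out, Tcf7l1 1436207_at gave -0.13 to 0.92 and Nfib 1434102_at -0.10 to 0.0844. Arrays with the same number in both fractions did not deviate together (r of 0.02 to 0.18, best with its own number in 0 of 5), and the replicate block gave 13 probe sets higher and 1 lower. The number of arrays and dim signals, as for Barx2, limit the precision.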
